A study of Homo sapiens with 48 samples.

Results

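The VMCUB experiment comprised 6 of the 48 RNA sequencing libraries of a study of bladder cancer cell lines, chosen by the cell line named in their labels. Of these 6, 3 came from VMCUB cells kept in 250 nM CPI-0209 until day 4, and 3 came from VMCUB cells given the vehicle DMSO over the same time. CPI-0209 inhibits the histone methyltransferase EZH2. VMCUB, spelled VMCUB1 in one label, is an established human bladder carcinoma line, and the labels name no genetic change in either group. The study treated 8 lines in the same way, and the 42 libraries of HT1197, HT1376, KU1919, SW780, T24, 639V and TCCSUP enter below only to show where VMCUB differed. Nothing in the labels says that the 3 libraries of a group were separate cultures, and the p-values below therefore reflect the library-to-library spread alone, which may be technical.

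EZH2 is the enzyme of Polycomb repressive complex 2 (PRC2) and places methyl groups on lysine 27 of histone H3 at genes that a cell keeps silent. A second complex, PRC1, binds that mark through its CBX subunits. Many of the genes held silent in this way encode developmental transcription factors, signalling proteins and products of other cell types, and in bladder epithelium they include genes of urothelial differentiation.

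The question was which genes changed in VMCUB cells after 4 days of the inhibitor. Library totals in VMCUB ran from 33204649 to 49493140 counts, within the range of 26481418 to 50916911 over all 48 libraries, and mitochondrial genes held 3.47% to 4.12% of the counts. Levels below are CPM, counts scaled to the TMM-adjusted library size. Levels per library are listed in the order of replicates 1, 2 and 3, and a level with ± is a mean with its SD (n = 3 libraries). Fold changes are CPI-0209 over DMSO on the log2 scale with their standard error (SE), and a gene was called when edgeR's quasi-likelihood test gave an adjusted p under 0.05.

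The 3 DMSO libraries lay farther from one another than the 3 CPI-0209 libraries did. On log2 CPM, the root mean square distance was 0.494 between DMSO replicates 1 and 2, 0.402 between replicates 1 and 3 and 0.598 between replicates 2 and 3, against 0.283 to 0.316 between CPI-0209 libraries and 0.645 to 0.803 between the groups. Replicates 2 and 3 lay on opposite sides of replicate 1: on the second principal component, which held 17.9% of the variance, replicate 2 stood at -35.9, replicate 1 at 14.1 and replicate 3 at 33.1. Replicate 1 was between the other two in 77.7% of the 9252 genes with a mean of at least 10 CPM. At least 2-fold differences separated DMSO replicates 2 and 3 in 189 of these genes, replicates 1 and 2 in 29 and replicates 1 and 3 in 12, against 0 to 4 genes between CPI-0209 libraries. Among the genes in which replicate 1 was highest, SOX9, a transcription factor of progenitor cells, measured 22.9, 7.21 and 6.54 CPM in the DMSO libraries and 26.1, 29.7 and 17.2 CPM in the CPI-0209 libraries, and CAT, the peroxide-degrading enzyme catalase, was lowest there with 5.15, 12.4 and 22.6 CPM in the DMSO libraries and 31.6, 24.3 and 23.8 CPM in the CPI-0209 libraries. HSPG2, which encodes the basement membrane proteoglycan perlecan and was picked after its values were seen, measured 165, 82.6 and 254 CPM in the DMSO libraries and 247, 242 and 239 CPM in the CPI-0209 libraries. The 2 groups overlapped in SOX9 and HSPG2 but not in CAT, and none of the 3 passed the test (adjusted p = 0.16, 0.14 and 0.27).

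The libraries carried the epithelial identity of the line. KRT7, a keratin of simple and urothelial epithelium, measured 4224, 3936 and 4085 CPM in the DMSO libraries and 3510, 3708 and 3750 CPM in the CPI-0209 libraries, and KRT5, a keratin of basal cells, measured 1603, 1183 and 1628 CPM in the DMSO libraries and 1499, 1574 and 1568 CPM in the CPI-0209 libraries. All 12 epithelial markers passed the filter on low counts, and their summed level was 9083 to 9583 CPM in DMSO and 8708 to 9243 CPM in CPI-0209 libraries. The 14 fibroblast markers summed to 46.6 to 49.3 CPM in DMSO and 63.2 to 69.9 CPM in CPI-0209 libraries, with DCN and COL3A1 below the filter. The 11 endothelial markers summed to 22.4 to 27.6 and 35.3 to 36.7 CPM, most of it ENG, with CDH5 below the filter. The 17 leukocyte markers summed to 15.1 to 22.4 and 21.2 to 21.9 CPM, with 6 of them at 0 counts in all 6 libraries and PTPRC below the filter. Of the luminal urothelial markers, UPK3B measured 36.3, 31.4 and 35.9 CPM in the DMSO libraries and 33.6, 33.1 and 35.6 CPM in the CPI-0209 libraries, while UPK1A, UPK3A and KRT20 did not pass the filter.

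With CPI-0209, many weakly expressed genes were called higher by large factors, and more strongly expressed genes were called lower by small ones. The lower calls depended on the DMSO libraries and on transcript length, as given below. Of 15474 genes tested, 2540 were called higher (16.4%) and 1698 lower (11%). Each list count below is to be read beside these shares. At least 2-fold higher were 1140 genes (7.37%), and at least 2-fold lower 46 (0.297%). Higher by at least 4-fold were 351 genes and by at least 8-fold 93. The 1140 genes had a median of 0.647 CPM in DMSO and 2.15 CPM in CPI-0209 libraries, and 701 of them stayed under 1 CPM on average in DMSO. The genes called lower had a median of 61.8 CPM in DMSO and 46.5 CPM in CPI-0209 libraries, with a median log2 fold change of -0.41. In all 1140 genes every CPI-0209 library lay above every DMSO library, an arrangement seen in 29.2% of all genes tested, and the reverse in 23.9%.

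**Figure D1:**
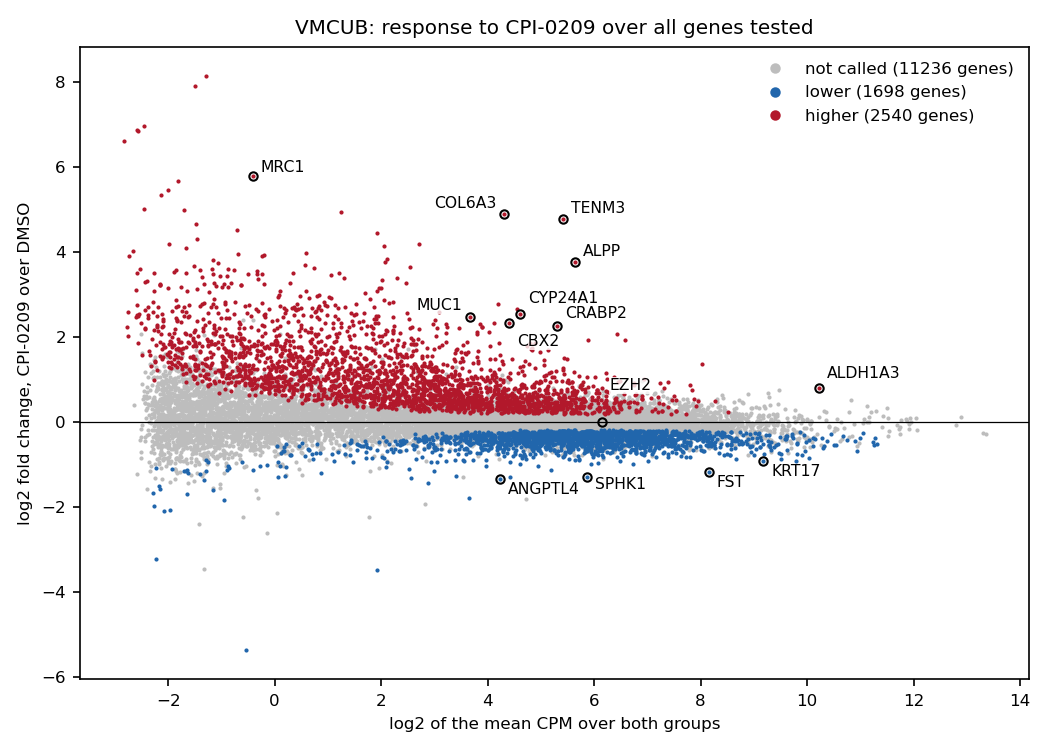
The log2 fold change of each of 15474 genes (vertical axis) is plotted against the log2 of its mean CPM over both groups (horizontal axis), with genes called higher in red, genes called lower in blue and genes not called in grey. Red points reach several log2 units at low levels, whereas the 1698 blue points lie mostly within 1 unit below 0 at high levels; the fitted fold of genes with 0 counts in DMSO, at the top left, depends on the prior count.

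Which DMSO libraries served as control moved the lower calls more than the higher ones. Without DMSO replicate 2, 3267 genes were higher and 2687 lower, and without DMSO replicate 3, 3807 and 3871. Without DMSO replicate 1, which left the 2 libraries farthest apart, 1580 and 430 genes were called, and leaving out 1 CPI-0209 library gave 1475 to 1514 higher and 297 to 339 lower. With DMSO replicate 1 as the only control, 4035 genes were higher and 4269 lower, the lone library being assumed to vary like the CPI-0209 group. Of the 1140 genes at least 2-fold higher, 904 to 1126 were still called higher when any 1 library was left out and 1058 when replicate 1 was the only control. Of the 1698 lower genes, 294 to 423 were still called lower without DMSO replicate 1 or 1 CPI-0209 library, and 1674 or more without DMSO replicate 2 or 3. Scaling to library totals alone, which moved the median of all genes from 0.04 to 0.13, gave 3255 higher and 826 lower genes, 79.8% of the calls being higher against 59.9% with TMM. With RLE scaling 51.9% of the calls were higher, and with DESeq2 47.4%.

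The target complex itself changed little. EZH2 measured 69.5, 72.5 and 70 CPM in the DMSO libraries and 71.3, 68.9 and 72 CPM in the CPI-0209 libraries (log2 fold change 0.00 ± 0.06, adjusted p = 0.98), a check of its mRNA only, since the compound acts on the enzyme. SUZ12, the subunit that holds the complex together, measured 105, 111 and 105 CPM in the DMSO libraries and 108, 108 and 103 CPM in the CPI-0209 libraries (log2 fold change -0.01 ± 0.06, adjusted p = 0.93). EED, which reads the histone mark, measured 72.2, 90.8 and 61.6 CPM in the DMSO libraries and 59.7, 62.9 and 59.9 CPM in the CPI-0209 libraries (log2 fold change -0.30 ± 0.14, adjusted p = 0.14), with overlapping groups. EZH1, the paralogue of EZH2, rose from 15.8, 13.4 and 18.5 CPM to 20.6, 21.4 and 20.8 CPM (log2 fold change 0.40 ± 0.12, adjusted p = 0.045), a call that was lost without DMSO replicate 1 or any 1 CPI-0209 library (adjusted p up to 0.14). Over the 12 PRC2 subunits tested, EPOP and EZH1 were higher and PHF19 lower, with a median log2 fold change of -0.01 against 0.04 for all genes. These shares of 16.7% and 8.33% lay near those over all genes, 16.4% and 11%. Without any 1 library 1 to 3 subunits were higher and 0 to 5 lower. EPOP, an accessory subunit, rose from 11.1, 11.6 and 10.7 CPM to 22.4, 22.7 and 23.9 CPM (log2 fold change 1.04 ± 0.07, adjusted p = 0.00014), with the groups far apart.

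Of 22 PRC1 subunits tested, 9 were higher and 0 lower, with a median of 0.24. CBX2, a chromodomain subunit that binds the PRC2 mark, rose from 7.35, 6.95 and 6.88 CPM to 34.9, 35.8 and 35.7 CPM (log2 fold change 2.33 ± 0.07, adjusted p = 2.3e-05), and with SPATA13 it had the smallest p among the higher genes named here. CBX6 rose from 57.3, 58.6 and 62.8 CPM to 114, 115 and 113 CPM and PHC1, a polyhomeotic subunit, from 11.5 ± 0.99 to 20 ± 0.437 CPM (log2 fold changes 0.94 and 0.80). The 2 groups were apart in all 3 of these genes. Without 1 library the number of PRC1 subunits called higher was 6 to 11.

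Among genes that reached a mean of 1 CPM with CPI-0209, the largest rises were in genes of matrix, adhesion, surface enzymes and transcription. COL6A3, a chain of collagen VI, measured 0.863, 2.2 and 0.812 CPM in the DMSO libraries and 38.4, 38.4 and 38.5 CPM in the CPI-0209 libraries (log2 fold change 4.89 ± 0.32, adjusted p = 0.00014). TENM3, a transmembrane adhesion protein of the teneurin family, measured 2.31, 4.49 and 2.27 CPM in the DMSO libraries and 86.3, 78.7 and 82.5 CPM in the CPI-0209 libraries (log2 fold change 4.77 ± 0.25, adjusted p = 8.4e-05). In both genes DMSO replicate 2 was the highest DMSO library, yet far under the CPI-0209 libraries. ALPP, the placental alkaline phosphatase, measured 5.43, 9.67 and 5.28 CPM in the DMSO libraries and 88.4, 93.5 and 95.6 CPM in the CPI-0209 libraries (log2 fold change 3.77 ± 0.23, adjusted p = 0.00014), and its neighbour ALPG, a near-identical germ cell isozyme, 0.195, 0.217 and 0.0427 CPM in the DMSO libraries and 4.38, 4.58 and 4.78 CPM in the CPI-0209 libraries (log2 fold change 4.94 ± 0.32, adjusted p = 0.00014). Reads of ALPP and ALPG can be assigned to either gene, so the split between them is uncertain. MRC1, the macrophage mannose receptor, had 3 counts in the DMSO and 201 in the CPI-0209 libraries, a ratio of 62.4 with a 95% counting interval of 21.1 to 305 that covers counting error only. None of the 3 leukocyte markers tested was called: CD68 measured 18.6, 11.8 and 19.4 CPM in the DMSO libraries and 18.3, 18.3 and 18.7 CPM in the CPI-0209 libraries and CD14 1.53, 1.57 and 1.58 CPM in the DMSO libraries and 1.25, 1.74 and 1.61 CPM in the CPI-0209 libraries.

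FAM171A1, a membrane protein, rose from 0.584, 0.868 and 0.577 CPM to 12.6, 12.1 and 12.7 CPM (log2 fold change 4.20 ± 0.15, adjusted p = 4.7e-05). FAM167A rose from 0.278, 0.603 and 0.128 CPM to 6.97, 7.38 and 7.51 CPM and ZNF516, a zinc finger protein, from 0.436 ± 0.243 to 7.89 ± 0.181 CPM (log2 fold changes 4.44 and 4.15). IGF2BP1, an RNA-binding protein of fetal tissues, rose from 0.306, 0.844 and 0.513 CPM to 7.45, 8.35 and 8.6 CPM. FMN1, an actin-nucleating formin, rose from 0.573 ± 0.34 to 7.88 ± 0.159 CPM (3.85 and 3.78). All of these started below 1 CPM in every DMSO library, and the groups were far apart. C2CD4C, SYPL2, CALB2 (the calcium-binding protein calretinin), TEX15 (a meiosis gene) and ZNF467 completed the 15 largest rises, with log2 fold changes of 3.90 to 4.52 and 1.17 to 2.82 CPM on average in the CPI-0209 libraries. The adjusted p of each of the 15 stayed under 0.05 when any 1 library was left out (highest 0.0077, for MRC1).

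**Figure D2:**
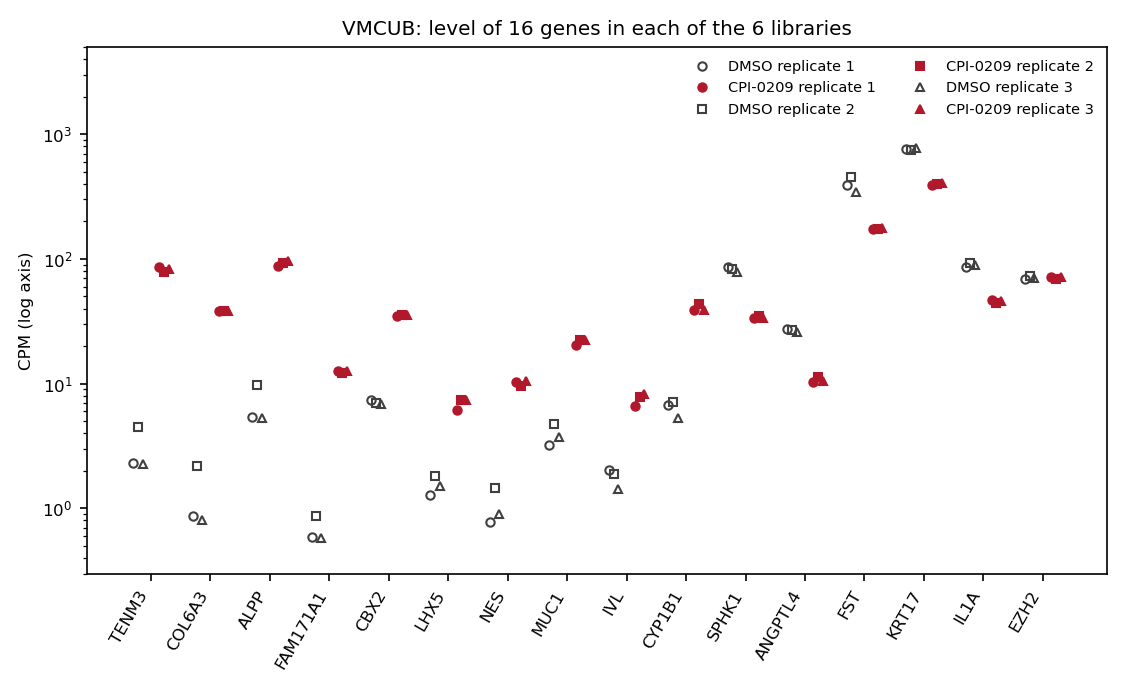
The CPM of 16 genes (log vertical axis) is shown in each of the 3 DMSO (grey, open) and 3 CPI-0209 (red, filled) libraries, with marker shape giving the replicate. The groups do not overlap in any gene but EZH2, and DMSO replicate 2 stands above replicates 1 and 3 in TENM3, COL6A3 and ALPP.

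The 10 rises with the smallest p started from mean DMSO levels of 0.677 to 13.2 CPM. SPATA13, a guanine nucleotide exchange factor, measured 4.73, 4.44 and 4.87 CPM in the DMSO libraries and 30.6, 32.7 and 32.6 CPM in the CPI-0209 libraries (log2 fold change 2.77 ± 0.07, adjusted p = 2.3e-05). ADGRL1, a latrophilin adhesion receptor, rose from 12.5, 12.4 and 13.4 CPM to 46.5, 45 and 47.6 CPM, and DBN1, the actin-binding protein drebrin, from 13.2 ± 0.662 to 43.1 ± 0.264 CPM (log2 fold changes 1.86 and 1.71). CYP24A1, the enzyme that degrades active vitamin D, rose from 6.29, 7.77 and 7.4 CPM to 42.6, 40.4 and 42.3 CPM (log2 fold change 2.54 ± 0.09, adjusted p = 4.7e-05). GABBR1, a subunit of the GABA-B receptor, rose from 0.791 ± 0.0828 to 6.76 ± 0.233 CPM, GFY from 0.721 ± 0.0503 to 7.33 ± 0.625 CPM and HIVEP3, a zinc finger transcription factor, from 2.07 ± 0.159 to 9.66 ± 0.0765 CPM (log2 fold changes 3.08, 3.35 and 2.22). LAMA4, a laminin chain of basement membranes, rose from 3.76, 3.72 and 4.32 CPM to 18, 18 and 18.6 CPM (log2 fold change 2.21 ± 0.08, adjusted p = 4.7e-05).

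Developmental transcription factors rose widely among the members tested. The list matched 159 genes, and 80 passed the filter on low counts. A gene silent in DMSO passes only through its CPI-0209 libraries. Shares of lists rich in silent genes therefore hold for tested members alone. Tested members were 29 of 39 HOX and 12 of 14 Hedgehog genes. In the mucin and neuronal lists they were 20 of 34 and 14 of 31. Of 80 tested outside the HOX clusters, 47 were higher (58.8%, below the 70% of the mucin and 66.7% of the Hedgehog list given below) and 2, FOXD1 and SOX7, lower, with a median log2 fold change of 0.90 against 0.04 for all genes, and leaving out 1 library gave 35 to 49 higher. LHX5, a LIM homeobox factor of the nervous system, rose from 1.28, 1.81 and 1.52 CPM to 6.11, 7.43 and 7.42 CPM (log2 fold change 2.18 ± 0.15, adjusted p = 0.00019). Its relative LHX1 rose from 1.28, 1.95 and 1.6 CPM to 6.56, 6.88 and 6.93 CPM and ONECUT2, a factor of liver and neural development, from 1.48 ± 0.184 to 5.09 ± 0.0757 CPM (log2 fold changes 2.07 and 1.78). HAND1, a basic helix-loop-helix factor, had 0 counts in the 3 DMSO and 45 in the 3 CPI-0209 libraries, at least 13.98-fold higher when DMSO is set at 3 counts in the group. Of 29 HOX genes, 13 were higher and 2 lower (median 0.35), 9 to 16 higher and 0 to 5 lower without any 1 library. HOXC6 rose from 0.167, 0.289 and 0.214 CPM to 2.18, 1.88 and 1.67 CPM (log2 fold change 3.08 ± 0.23, adjusted p = 0.00026). HOXB9 rose from 6.61 ± 0.283 to 14.1 ± 0.521 CPM. HOXB13 rose from 0.845 ± 0.208 to 2.59 ± 0.306 CPM and HOXD9 from 4.06 ± 0.268 to 6.44 ± 0.276 CPM.

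Genes of developmental signalling pathways were more often higher than lower among the members tested. Summed levels were higher in the Hedgehog list, 38.1 to 58.3 CPM in DMSO and 79.4 to 81.9 CPM in CPI-0209 libraries. Those of the Wnt list, with 34 of 55 genes tested, overlapped at 880 to 909 and 896 to 921 CPM. Of 12 Hedgehog pathway genes, 8 were higher and 0 lower, with a median of 1.38, and 4 to 10 were higher without any 1 library. SMO, the membrane protein that passes the signal on, rose from 5.96, 4.99 and 7.03 CPM to 17.5, 18.7 and 18.2 CPM (log2 fold change 1.59 ± 0.12, adjusted p = 0.00029). The transcription factor GLI2 rose from 0.536 ± 0.137 to 1.92 ± 0.155 CPM. The co-receptors CDON and GAS1 had log2 fold changes of 1.26 and 1.91. The ligand SHH measured 0, 0.314 and 0.0214 CPM in the DMSO libraries and 1.3, 1.28 and 1.32 CPM in the CPI-0209 libraries (log2 fold change 3.49 ± 0.72, adjusted p = 0.014), but its call was lost without any 1 CPI-0209 library (adjusted p up to 0.062). Of 34 Wnt pathway genes, 17 were higher and 4 lower (median 0.50). The receptors LGR6 and FZD2 rose from 0.501, 0.603 and 0.62 CPM to 2.72, 2.66 and 2.17 CPM and from 6.19 ± 1.1 to 16.9 ± 1.19 CPM. The ligand WNT11 rose from 0.745 ± 0.0476 to 2.59 ± 0.113 CPM. The transcription factor TCF7 rose from 6.91 ± 1.09 to 15.1 ± 0.162 CPM. WNT3, WNT7A, WNT16 and DKK3 were the lower members, and 1 member was lower without DMSO replicate 1 or any 1 CPI-0209 library.

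Of 26 TGF-beta and BMP pathway genes, 14 were higher and 2 lower (median 0.36). All 37 genes of this list summed to 1489 to 1573 CPM in DMSO and a lower 1366 to 1386 CPM in CPI-0209 libraries. SMAD6, an inhibitor of BMP signalling, rose from 8.29, 7.24 and 8.68 CPM to 28.3, 29.9 and 29.1 CPM (log2 fold change 1.85 ± 0.09, adjusted p = 8.0e-05). ID2, a BMP target, rose from 2.6 ± 0.602 to 9.24 ± 0.184 CPM. The ligand BMP6 rose from 1.84 ± 0.0962 to 4.45 ± 0.356 CPM. FST, the secreted antagonist follistatin that binds activin, went the other way, from 388, 451 and 344 CPM to 174, 174 and 178 CPM (log2 fold change -1.17 ± 0.11, adjusted p = 0.0005). Of 21 Notch genes, 7 were higher and 4 lower (median 0.53), and summed levels overlapped at 622 to 803 CPM in DMSO and 659 to 667 CPM in CPI-0209 libraries. The targets HEYL and NRARP rose from 0.278, 0.265 and 0.235 CPM to 1.61, 1.49 and 1.38 CPM and from 6 ± 0.208 to 11.8 ± 0.211 CPM, whereas HES7, a target that oscillates in the embryo, fell from 5.78 ± 0.19 to 2.79 ± 0.229 CPM (log2 fold change -1.05 ± 0.10, adjusted p = 0.00054). Of 18 retinoic acid genes, 10 were higher and 2 lower (median 0.53). Their list summed to 1268 to 1372 CPM in DMSO and 2034 to 2178 CPM in CPI-0209 libraries. CRABP2, the carrier of retinoic acid, rose from 10.7, 19.6 and 10.6 CPM to 63.7, 65.4 and 66.1 CPM (log2 fold change 2.25 ± 0.24, adjusted p = 0.00097). ALDH1A3, which makes retinoic acid, rose from 881 ± 30.3 to 1523 ± 68.2 CPM. CYP26A1, which clears it, rose from 0.503 ± 0.119 to 2.24 ± 0.389 CPM. DHRS9, a retinol dehydrogenase, fell from 8.38, 8.71 and 7.29 CPM to 4.57, 4.54 and 4.23 CPM. Leaving out 1 library gave 5 to 9 Notch genes higher and 1 to 5 lower, and 6 to 13 retinoic acid genes higher.

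Matrix genes rose widely among the 55 of 69 members tested. Summed levels overlapped between the groups, 2761 to 4213 CPM in DMSO and 4133 to 4191 CPM in CPI-0209 libraries. Of 55 collagen and matrix genes, 28 were higher and 3 lower (median 0.82), and 22 to 36 were higher without any 1 library. Beside COL6A3 and LAMA4, given above, COL6A1, the chain that pairs with COL6A3 in collagen VI, rose from 2.73, 1.98 and 2.35 CPM to 10.5, 11 and 10.9 CPM (log2 fold change 2.20 ± 0.12, adjusted p = 9.1e-05). The microfibril protein FBN1 rose from 2.63 ± 0.399 to 10.3 ± 0.298 CPM. FBLN1, a fibulin, rose from 10.5 ± 0.625 to 28.3 ± 1.9 CPM. The lower members were COL18A1, MMP14 and ADAMTS1. Of 10 fibroblast markers tested, 6 were higher, among them COL1A1 from 4.62, 3.72 and 4.77 CPM to 9.2, 9.66 and 10.5 CPM, and TAGLN, an actin-binding protein, fell from 23 ± 1.44 to 13.6 ± 0.744 CPM. DCN and COL3A1 were below the filter, as given above. Of 27 genes of the epithelial to mesenchymal transition, 8 were higher (29.6%) and 4 lower (14.8%), against 16.4% and 11% of all genes (median 0.11). Without any 1 library 2 to 5 were lower. FN1, the mesenchymal matrix protein fibronectin, rose from 15.8, 13.1 and 13.1 CPM to 37.6, 36.2 and 40.2 CPM. The repressor ZEB1 rose from 0.551 ± 0.0548 to 1.63 ± 0.086 CPM, while the tight junction gene CLDN7 fell from 179.8 ± 11.1 to 118 ± 4.98 CPM (log2 fold change -0.61 ± 0.07, adjusted p = 0.0015). VIM measured 4.43, 5.26 and 4.55 CPM in the DMSO libraries and 4.73, 4.69 and 4.7 CPM in the CPI-0209 libraries and CDH1 156, 124 and 186 CPM in the DMSO libraries and 152, 149 and 148 CPM in the CPI-0209 libraries, with overlapping groups (adjusted p = 0.93 and 0.80).

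Urothelial genes moved in both directions along the luminal and basal programmes. Of 22 luminal genes, 11 were higher and 1 lower (median 0.43), and 8 to 13 were higher without any 1 library. ELF3, an epithelial ETS factor, rose from 43.8, 49.3 and 44.6 CPM to 99.1, 109 and 101 CPM (log2 fold change 1.16 ± 0.08, adjusted p = 0.00014). GRHL3, a factor of surface cell differentiation, rose from 1.17, 0.917 and 1.33 CPM to 5.43, 5.96 and 5.11 CPM, the receptor FGFR3 from 4.67 ± 0.625 to 10.8 ± 0.602 CPM and PPARG, a regulator of luminal fate, from 9.91 ± 2.15 to 23.2 ± 0.753 CPM (log2 fold changes 2.27, 1.20 and 1.23). CD24, a surface glycoprotein, fell from 444, 497 and 417 CPM to 270.4, 262 and 268 CPM. Uroplakins were not among the risers: UPK1B had a log2 fold change of -0.38 (adjusted p = 0.059) and UPK2 0.45 (adjusted p = 0.12).

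Of 32 basal and squamous genes, 9 were higher (28.1%) and 5 lower (15.6%), against 16.4% and 11% of all genes (median 0.11). The basal keratin KRT17 fell from 764, 750.0 and 769 CPM to 392, 402 and 407 CPM (log2 fold change -0.93 ± 0.06, adjusted p = 0.00016) and KRT14 from 324 ± 14.4 to 225 ± 5.3 CPM (log2 fold change -0.53 ± 0.07, adjusted p = 0.0019), and in both the groups were apart. TP63, the basal master factor, fell from 104, 83.7 and 112 CPM to 70.3, 67.9 and 66.8 CPM (log2 fold change -0.55 ± 0.11, adjusted p = 0.013), a call lost without DMSO replicate 1 or any 1 CPI-0209 library (adjusted p up to 0.066). KRT4, a keratin of suprabasal mucosal cells, rose from 0.473, 0.603 and 0.321 CPM to 2.78, 3.47 and 3.05 CPM, and IVL, involucrin of the cornified envelope, from 1.78 ± 0.312 to 7.57 ± 0.841 CPM (log2 fold changes 2.74 and 2.09). KRT5 had a log2 fold change of 0.07 and did not pass the test (adjusted p = 0.69). Without DMSO replicate 2, 11 members were higher and 12 lower, and without DMSO replicate 1 or any 1 CPI-0209 library, 5 or 6 were higher and 3 lower. Keratin genes share sequence with one another and with pseudogenes, so the assignment of their reads is uncertain.

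Of 27 cornified envelope and epidermal differentiation genes, 10 were higher and 3 lower (median 0.57), and 5 to 11 were higher without any 1 library. GRHL1, another grainyhead factor, rose from 3.34, 3.96 and 3.93 CPM to 6.63, 6.46 and 6.87 CPM. ECM1 fell from 33.5, 29.9 and 34 CPM to 16.8, 16.8 and 15.7 CPM (log2 fold change -0.98 ± 0.08, adjusted p = 0.00027) and SERPINB2, a protease inhibitor, from 126 ± 2 to 77.4 ± 2.02 CPM. Of 20 mucin, CEACAM and LY6 family genes, 14 were higher and 1, LY6K, lower (median 0.90), and 12 to 15 were higher without any 1 library. The membrane mucin MUC1 rose from 3.2, 4.73 and 3.72 CPM to 20.3, 22.4 and 22.4 CPM (log2 fold change 2.48 ± 0.14, adjusted p = 1.0e-04). MUC20 rose from 1.15 ± 0.0789 to 3.67 ± 0.371 CPM. The surface protein PSCA rose from 7.47 ± 1 to 25.6 ± 2.39 CPM and LYPD1 from 1.65 ± 0.445 to 7.84 ± 0.144 CPM.

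Nervous system genes were more often higher than lower among members tested. Tested were 31 of 47 axon guidance, 35 of 62 ion channel and 37 of 64 cadherin genes. Summed neuronal levels overlapped, 387, 432 and 350 CPM in DMSO and 371 to 376 CPM in CPI-0209 libraries. So did the ion channel sums, 323, 330 and 296 CPM and 311 to 318 CPM. Axon guidance sums (281 to 380 and 393 to 398 CPM) and cadherin sums (132 to 166 and 189 to 193 CPM) were higher with CPI-0209. Of 31 axon guidance and synaptic genes, 16 were higher and 1 lower (median 0.45), and 10 to 17 were higher without any 1 library, the lowest count without DMSO replicate 1. The ephrin EFNB3 rose from 0.167, 0.289 and 0.171 CPM to 2.49, 3.18 and 2.64 CPM (log2 fold change 3.71 ± 0.24, adjusted p = 0.00014). The netrin NTN4 rose from 7.19 ± 0.509 to 14.2 ± 0.829 CPM. The Nogo receptor RTN4R rose from 5.25 ± 0.416 to 10.5 ± 0.398 CPM. The semaphorin SEMA3A rose from 10.1 ± 0.64 to 17.2 ± 0.461 CPM. Of 14 neuronal genes, 7 were higher and 1, UCHL1, lower (median 0.45). NES, the filament protein nestin of progenitor cells, rose from 0.779, 1.45 and 0.898 CPM to 10.3, 9.52 and 10.4 CPM (log2 fold change 3.26 ± 0.20, adjusted p = 0.00012). The microtubule protein MAPT rose from 2.12 ± 0.0698 to 6.32 ± 0.52 CPM. The adhesion protein L1CAM rose from 0.556 ± 0.189 to 3.01 ± 0.475 CPM. Of 35 ion channel and transporter genes, 13 were higher and 2 lower (median 0.68), with CACNG4, a calcium channel subunit, from 5.57, 5.6 and 6.41 CPM to 18.1, 17.3 and 18.6 CPM and the zinc transporter SLC30A3 from 0.141 ± 0.0682 to 1.46 ± 0.201 CPM. Of 37 protocadherins and cadherins, 11 were higher and 0 lower (median 0.44), 4 to 13 without any 1 library. PCDH7 rose from 5.29, 4.49 and 5.69 CPM to 15.8, 16.6 and 15.1 CPM (log2 fold change 1.62 ± 0.10, adjusted p = 0.00014). Clustered protocadherins share constant exons, so the level of single members is uncertain.

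Interferon-stimulated and MHC class I genes were more often higher than lower. Of 40 type I interferon-stimulated genes, 15 were higher and 1, ISG15, lower (median 0.44), and 10 to 21 were higher without any 1 library. UBE2L6, the enzyme that attaches ISG15 to proteins, rose from 5.54, 5.55 and 5.3 CPM to 15, 15.4 and 15.3 CPM (log2 fold change 1.48 ± 0.07, adjusted p = 8.0e-05). HERC5, a ligase of the same pathway, rose from 3.6 ± 0.385 to 8.6 ± 0.56 CPM. The antiviral GTPase MX1 rose from 3.69 ± 0.176 to 7.46 ± 0.484 CPM. PARP9 rose from 8.53 ± 0.306 to 14.8 ± 0.334 CPM. ISG15 itself measured 51.1, 68.8 and 43.1 CPM in the DMSO libraries and 32.1, 34.4 and 33.9 CPM in the CPI-0209 libraries (log2 fold change -0.70 ± 0.16, adjusted p = 0.022), and its call was lost without DMSO replicate 1 or any 1 CPI-0209 library. Of 16 MHC class I genes, 8 were higher and 0 lower (median 0.22), 4 to 9 without any 1 library. NLRC5, the transactivator of class I genes, rose from 3.09, 2.07 and 2.78 CPM to 8.77, 10.2 and 9.51 CPM (log2 fold change 1.85 ± 0.15, adjusted p = 0.00035). HLA-B rose from 14.8 ± 3.45 to 32.7 ± 0.271 CPM. The transcription factor IRF1 rose from 22.5 ± 0.599 to 34.5 ± 0.823 CPM. The proteasome subunit PSMB9 rose from 7.85 ± 1.44 to 13.2 ± 0.649 CPM. The 17 class I genes did not rise in summed level. They summed to 1030, 1135 and 956 CPM in the DMSO libraries and 1004, 1048 and 1039 CPM in the CPI-0209 libraries. Of 11 MHC class II genes, 2 were higher and 1 lower, and these shares of 18.2% and 9.09% lay near those over all genes. HLA-DQB1 rose from 1.14, 1.52 and 1.33 CPM to 2.67, 3.49 and 3.43 CPM and HLA-DMB from 0.537 ± 0.0933 to 1.08 ± 0.166 CPM, and RFXANK, a factor of class II transcription, fell from 53.1 ± 8.57 to 38.1 ± 1.59 CPM. The call of HLA-DMB was lost without CPI-0209 replicate 1 or 3 and that of RFXANK without DMSO replicate 1 or any 1 CPI-0209 library (adjusted p up to 0.077 and 0.11). HLA genes are polymorphic and share sequence, so their levels are uncertain.

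Cytokines were more often lower than higher, with 6 of 29 higher (20.7%) and 9 lower (31%), against 16.4% and 11% of all genes (median -0.07). IL1A, interleukin-1 alpha, fell from 86.1, 92.6 and 88.7 CPM to 47.1, 44.7 and 46.2 CPM (log2 fold change -0.95 ± 0.06, adjusted p = 0.00014) and IL1B from 14.7 ± 0.473 to 9.45 ± 0.427 CPM (log2 fold change -0.64 ± 0.07, adjusted p = 0.0011). The growth factor of macrophages CSF1 rose from 10.6, 9.6 and 11.5 CPM to 21.3, 20.1 and 21.9 CPM. The chemokine CXCL16 rose from 5.07 ± 0.199 to 9.86 ± 0.242 CPM. Without any 1 library 3 to 8 members were higher and 6 to 10 lower. Of 18 NF-kappaB response genes, 6 were higher and 5 lower, with BCL3 from 24.9, 21.5 and 23.9 CPM to 38.5, 35.9 and 36.9 CPM and the adhesion molecule ICAM1 from 2.46 ± 0.565 to 5.14 ± 0.509 CPM. Both had groups apart, with log2 fold changes of 0.66 and 1.06, and 0 or 1 member was lower without DMSO replicate 1 or any 1 CPI-0209 library.

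Growth factors and their receptors moved in both directions. Of 49 genes of growth factors and receptor tyrosine kinases, 18 were higher and 11 lower (median 0.25), with 13 to 21 higher and 7 to 12 lower without any 1 library. FGFR4 rose from 25.7, 25.3 and 26 CPM to 58.1, 58.4 and 63 CPM (log2 fold change 1.22 ± 0.06, adjusted p = 8.0e-05). ROR2, a Wnt5A receptor, rose from 0.0814 ± 0.0163 to 1.01 ± 0.14 CPM. KIT, the receptor of stem cell factor, rose from 0.107 ± 0.0405 to 0.98 ± 0.0938 CPM. PDGFRA rose from 0.124 ± 0.0878 to 1.46 ± 0.286 CPM. Ligands stood on both sides. EGF, FGF19, NTF3, IGF2, BDNF and NRG4 were higher, EGF from 0.306, 0.265 and 0.278 CPM to 0.876, 0.753 and 0.704 CPM and NRG4, another ligand of the EGF family, from 4.9 ± 0.169 to 7.61 ± 0.31 CPM (log2 fold changes 1.46 and 0.63). The EGF receptor ligands AREG, HBEGF, EREG and TGFA were among the lower genes, TGFA losing its call without DMSO replicate 1 or any 1 CPI-0209 library: AREG fell from 78.7, 101 and 65.2 CPM to 40.5, 42.4 and 41.8 CPM (log2 fold change -0.98 ± 0.15, adjusted p = 0.0048) and HBEGF from 21.8 ± 1.21 to 14.5 ± 0.68 CPM (log2 fold change -0.59 ± 0.07, adjusted p = 0.0018). Of 26 immediate early and ERK feedback genes, 9 were higher and 5 lower (median 0.20). FOS rose from 12.9, 14 and 12.5 CPM to 43.6, 40.4 and 47.3 CPM (log2 fold change 1.74 ± 0.09, adjusted p = 8.0e-05). FOSB rose from 12.5 ± 1.25 to 20.7 ± 1.63 CPM and the ephrin receptor EPHA4 from 1.2 ± 0.132 to 4.18 ± 0.118 CPM, while PHLDA1 fell from 283 ± 2.54 to 160.0 ± 3.3 CPM (log2 fold change -0.83 ± 0.06, adjusted p = 0.0002). MYC, an immediate early growth regulator, fell from 284 ± 10.2 to 216 ± 7.26 CPM (log2 fold change -0.40 ± 0.07, adjusted p = 0.0057). Leaving out 1 library gave 5 to 11 higher and 3 to 6 lower.

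Of 31 xenobiotic metabolism and oxidative stress genes, 8 were higher and 2 lower (median 0.10), with 5 higher without DMSO replicate 1 or CPI-0209 replicate 2 and 10 lower without DMSO replicate 3. CYP1B1 and CYP1A1, textbook targets of the aryl hydrocarbon receptor, rose: CYP1B1 from 6.71, 7.19 and 5.34 CPM to 38.7, 43.4 and 39.2 CPM (log2 fold change 2.66 ± 0.12, adjusted p = 8.0e-05) and CYP1A1 from 1.12 ± 0.301 to 7.76 ± 0.756 CPM (log2 fold change 2.79 ± 0.19, adjusted p = 0.00016). The drug exporters ABCC3 and ABCB1 rose from 30.5, 25.8 and 35.7 CPM to 60.9, 58.4 and 57.5 CPM and from 0.502 ± 0.151 to 1.7 ± 0.217 CPM. The metallothionein MT2A and the quinone reductase NQO1 were the lower genes. Of 37 hypoxia and glycolysis genes, 5 were higher (13.5%) and 7 lower (18.9%), against 16.4% and 11% of all genes (median -0.04). The risers named next are therefore not read as a rise of the list. The carbonic anhydrase CA12 rose from 1.84, 1.93 and 1.41 CPM to 7.72, 7.64 and 7.57 CPM (log2 fold change 2.15 ± 0.13, adjusted p = 0.00011) and the secreted STC2 from 5.76 ± 1.06 to 11.8 ± 0.359 CPM. ADM, the peptide adrenomedullin, fell from 70.9, 75.5 and 67.4 CPM to 42.7, 43.8 and 47.7 CPM, and 4 members were lower without DMSO replicate 1 or any 1 CPI-0209 library.

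Of 25 genes known from earlier work as EZH2-repressed, 9 were higher and 3 lower (median 0.28), with 8 to 10 higher and 2 to 5 lower without any 1 library. The protease inhibitor TIMP2 rose from 32.2, 30.9 and 37.4 CPM to 70.3, 71.9 and 71.1 CPM (log2 fold change 1.09 ± 0.08, adjusted p = 0.00028). The chaperone CLU rose from 13 ± 0.396 to 22.3 ± 0.82 CPM. The cannabinoid receptor CNR1 rose from 0.66 ± 0.32 to 3.74 ± 0.346 CPM. CDKN1C, which encodes the cell cycle inhibitor p57, rose from 0.445, 0.796 and 0.192 CPM to 3.07, 2.99 and 3.05 CPM (log2 fold change 2.68 ± 0.37, adjusted p = 0.003). CDKN2A, a known Polycomb target that encodes p16, fell from 584, 688 and 553 CPM to 358, 387 and 379.7 CPM (log2 fold change -0.70 ± 0.10, adjusted p = 0.0031), and CDKN2C fell from 101 ± 6.05 to 67.7 ± 0.242 CPM. CDKN1A, which encodes p21, changed from 27.7, 25.7 and 27.4 CPM to 33.6, 32.1 and 32.4 CPM (log2 fold change 0.28 ± 0.06, adjusted p = 0.019), a call lost without DMSO replicate 1 or any 1 CPI-0209 library. Of 44 proliferation genes, 2 were higher (4.55%) and 3 lower (6.82%), both below the 16.4% and 11% of all genes (median 0.01). The counts were 2 and 0 without DMSO replicate 1 or any 1 CPI-0209 library, 7 and 8 without DMSO replicate 2 and 6 and 14 without DMSO replicate 3. E2F2, a cell cycle transcription factor, rose from 6.99, 7.72 and 7.2 CPM to 18.2, 18.8 and 20.7 CPM (log2 fold change 1.40 ± 0.08, adjusted p = 0.00011) and cyclin E1 (CCNE1) from 11.8 ± 0.474 to 17.1 ± 0.488 CPM. The mitotic kinases AURKA and AURKB fell by 0.25 and 0.21 on the log2 scale, and these calls were lost without DMSO replicate 1 or any 1 CPI-0209 library.

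Among genes with a symbol and a mean of at least 1 CPM in DMSO, the largest falls were smaller than the largest rises. One protein-coding gene that carries no symbol in the table, ENSG00000273590, was picked after its values were seen and fell further, from 7.88, 8.97 and 4.15 CPM to 0.292, 1.21 and 0.323 CPM (log2 fold change -3.48 ± 0.53, adjusted p = 0.0044). SPHK1, the kinase that makes sphingosine 1-phosphate, measured 85.5, 83.2 and 79 CPM in the DMSO libraries and 33.5, 34.7 and 33.5 CPM in the CPI-0209 libraries (log2 fold change -1.28 ± 0.06, adjusted p = 8.0e-05). ANGPTL4, a secreted inhibitor of lipoprotein lipase, measured 27.5, 27 and 25.7 CPM in the DMSO libraries and 10.2, 11.2 and 10.4 CPM in the CPI-0209 libraries (log2 fold change -1.33 ± 0.07, adjusted p = 8.4e-05). CALML3, a calmodulin-like protein of stratified epithelium, fell from 30.2, 33.9 and 27 CPM to 11.9, 13 and 12.5 CPM, TMEM52B from 15.1 ± 0.621 to 6.25 ± 0.258 CPM and GLIPR1 from 50.2 ± 1.44 to 23 ± 0.967 CPM (log2 fold changes -1.28, -1.27 and -1.12). HS3ST1, a heparan sulfate sulfotransferase, fell from 65, 66.7 and 63.1 CPM to 32.8, 36.1 and 36.4 CPM. TP53AIP1, an apoptosis gene induced by p53, fell from 2.7, 2.51 and 2.5 CPM to 1.07, 1.32 and 0.939 CPM. The hair keratin KRT31 fell from 1.49 ± 0.14 to 0.605 ± 0.0926 CPM (-1.20 and -1.29). ZACN fell from 19.6, 28.6 and 10.2 CPM to 3.83, 6.4 and 6.75 CPM. MKKS (gene ID ENSG00000285508, as 3 IDs carry this symbol) fell from 9.52, 17.3 and 5.36 CPM to 3.70, 4.96 and 3.23 CPM. EIF4EBP3 fell from 1.45, 2.44 and 0.983 CPM to 0.642, 0.628 and 0.763 CPM. In these 3 genes the groups were apart, but the DMSO libraries differed widely. Each call was lost without DMSO replicate 1 or any 1 CPI-0209 library, and those of ZACN and MKKS also without DMSO replicate 2. ZACN overlaps SRP68, EXOC7 and GALR2, so its reads are uncertain.

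Genes with short transcripts were lower in CPI-0209 libraries as a class, and this moved with the DMSO libraries. Among genes of at least 10 CPM, split into 5 groups of equal size by the median length of their annotated transcripts, 22.4% and 27.5% of the 2 shortest groups were called lower against 5.95% of the longest, and 6.48% and 5.25% were called higher against 14.7%. The median log2 fold change ran from -0.14 and -0.17 in the 2 shortest groups to 0.15 in the longest. In DMSO replicate 2 the median deviation from the mean of the 6 libraries was 0.12 in the shortest group and -0.26 in the longest, in DMSO replicate 1 it was 0.08 and -0.06, in DMSO replicate 3 it was 0.00 and 0.07, and in the CPI-0209 libraries it was -0.08 to -0.06 in the shortest and 0.08 to 0.09 in the longest. DMSO replicate 2 was the highest of the 3 DMSO libraries in 79.2% of the genes called lower, against 42.7% of all genes tested and 42.1% of those at least 2-fold higher. With each library's length trend removed, 2881 genes were higher and 1180 lower, and 1008 of the 1698 lower genes and 1125 of the 1140 genes at least 2-fold higher kept their call.

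**Figure D3:**
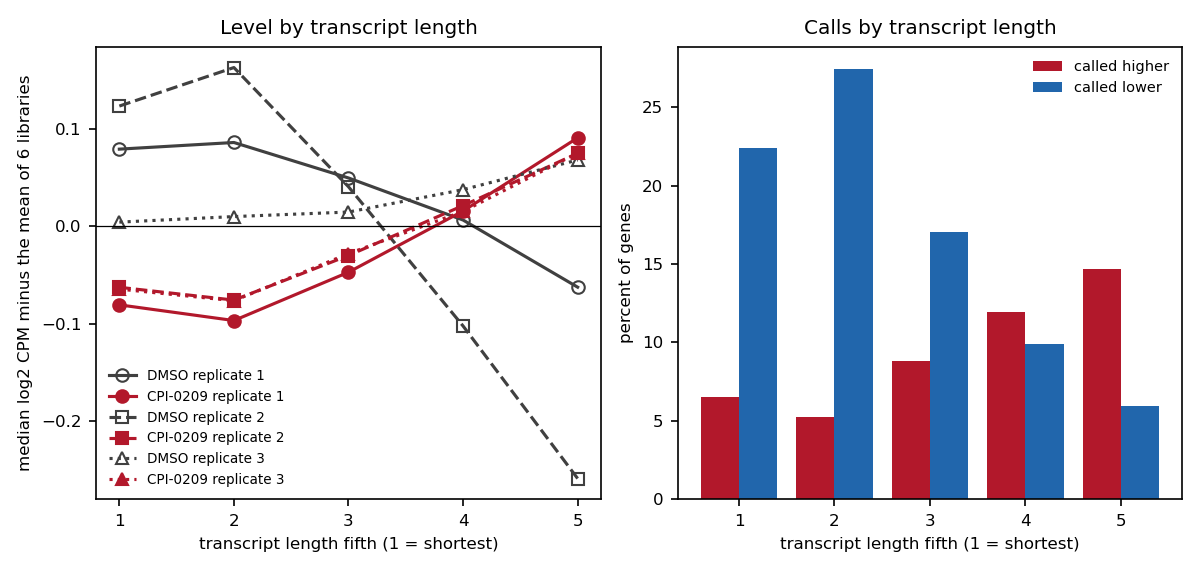
The left panel gives, for each of the 6 libraries, the median deviation of log2 CPM from the mean of all 6 in 5 groups of transcript length (genes of at least 10 CPM). DMSO replicate 2 falls from 0.12 to -0.26 from the shortest to the longest group while the CPI-0209 libraries rise; the right panel gives the percent of genes called higher (red) and lower (blue) in each group.

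Ribosomal protein genes, a list of short transcripts, had lower calls only. Of 45 ribosomal protein genes, 0 were higher and 15 lower (median -0.46, median transcript length 670 bases). RPS9 changed from 850.1, 1080 and 825 CPM to 513, 590.0 and 544 CPM (log2 fold change -0.74 ± 0.12, adjusted p = 0.0059) and RPL35 from 1120 ± 226 to 666 ± 38.9 CPM, with DMSO replicate 2 highest in both. The count was 34 without DMSO replicate 2, 45 without DMSO replicate 3, 1 or 2 without DMSO replicate 1 or any 1 CPI-0209 library, and 3 with the length trend removed. Of 43 nuclear genes of oxidative phosphorylation, 0 were higher and 11 lower (median -0.39, median length 703 bases), 0 to 38 lower without any 1 library and 6 with the length trend removed. Of 29 ribosome biogenesis genes, 8 were lower (median -0.17), among them NPM1, nucleophosmin, from 1481, 1793 and 1276 CPM to 1014, 1031 and 1022 CPM and NOP16 from 70.1 ± 7.83 to 48.3 ± 2.13 CPM, and 7 were lower with the length trend removed, but 1 without DMSO replicate 1 or any 1 CPI-0209 library. Of 16 housekeeping genes, 5 were lower, with PGK1 from 652, 668 and 600.3 CPM to 476, 485 and 478 CPM (log2 fold change -0.42 ± 0.07, adjusted p = 0.0068), and 2 with the length trend removed. The housekeeping count was 1 without DMSO replicate 1 or any 1 CPI-0209 library and 9 without DMSO replicate 3, and that of ribosome biogenesis genes 15 without DMSO replicate 2 and 18 without DMSO replicate 3. The call of NPM1 was among those lost, and that of RPL35 was lost without CPI-0209 replicate 1 or 3.

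Among the other lists, heat shock and mitochondrial DNA genes had no calls. In edgeR, 0 of 14 heat shock genes and 0 of 13 genes of mitochondrial DNA passed the test, although 4 members of each list were lower without DMSO replicate 3 and 1 mitochondrial gene was higher. HSP90AA1 measured 3144, 4019 and 2647 CPM in the DMSO libraries and 2696, 2530 and 2629 CPM in the CPI-0209 libraries and MT-CO1 7832, 6909 and 7144 CPM in the DMSO libraries and 8211, 7616 and 7900 CPM in the CPI-0209 libraries, with overlapping groups. Of 26 p53 targets, 1 was higher and 7 lower (median -0.11), with PERP, a desmosome protein, from 344, 344 and 316 CPM to 225, 229 and 225 CPM and GADD45A from 255 ± 25.4 to 167 ± 3.24 CPM, 2 to 10 lower without any 1 library. Of 38 replication-dependent histone genes, 2 were higher and 3 lower, and of 30 cholesterol synthesis genes, 3 and 5. Without DMSO replicate 1 or any 1 CPI-0209 library, no member of the histone list was called, and the cholesterol list held 0 higher and 2 lower, against 5 and 9 without DMSO replicate 3. Of 26 genes of the unfolded protein and integrated stress response, 2 were higher and 4 lower, with SLC3A2, an amino acid transporter subunit, from 1574, 1585 and 1435 CPM to 1063, 1155 and 1135 CPM. Of 22 YAP and TEAD targets, 3 were higher, with IGFBP3 from 121, 111 and 116 CPM to 176, 222 and 212 CPM, and 5 lower, with F3, tissue factor, from 1294 ± 18.3 to 976 ± 5.51 CPM. Over all genes tested, 16.4% were higher and 11% lower. The histone, cholesterol, stress response and YAP and TEAD lists had 5.26%, 10%, 7.69% and 13.6% higher, each below that share. Their lower shares were 7.89%, 16.7%, 15.4% and 22.7% in the same order. The risers named here are therefore not read as a rise of their lists. Lower stress response genes numbered 1 without DMSO replicate 1 or any 1 CPI-0209 library and 9 without DMSO replicate 3, with 0 to 4 higher. Lower YAP and TEAD targets numbered 1 or 2 without DMSO replicate 1 or any 1 CPI-0209 library and 7 without DMSO replicate 2, with 2 to 6 higher. Of 13 cancer/testis antigens, TEX15 and GAGE2A were higher (15.4%) and MAGEA12 lower (7.69%), both below the shares over all genes. The calls of GAGE2A and MAGEA12 were lost without any 1 CPI-0209 library (adjusted p up to 0.13 and 0.15). That of MAGEA12 was also lost without DMSO replicate 1.

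**Figure D4:**
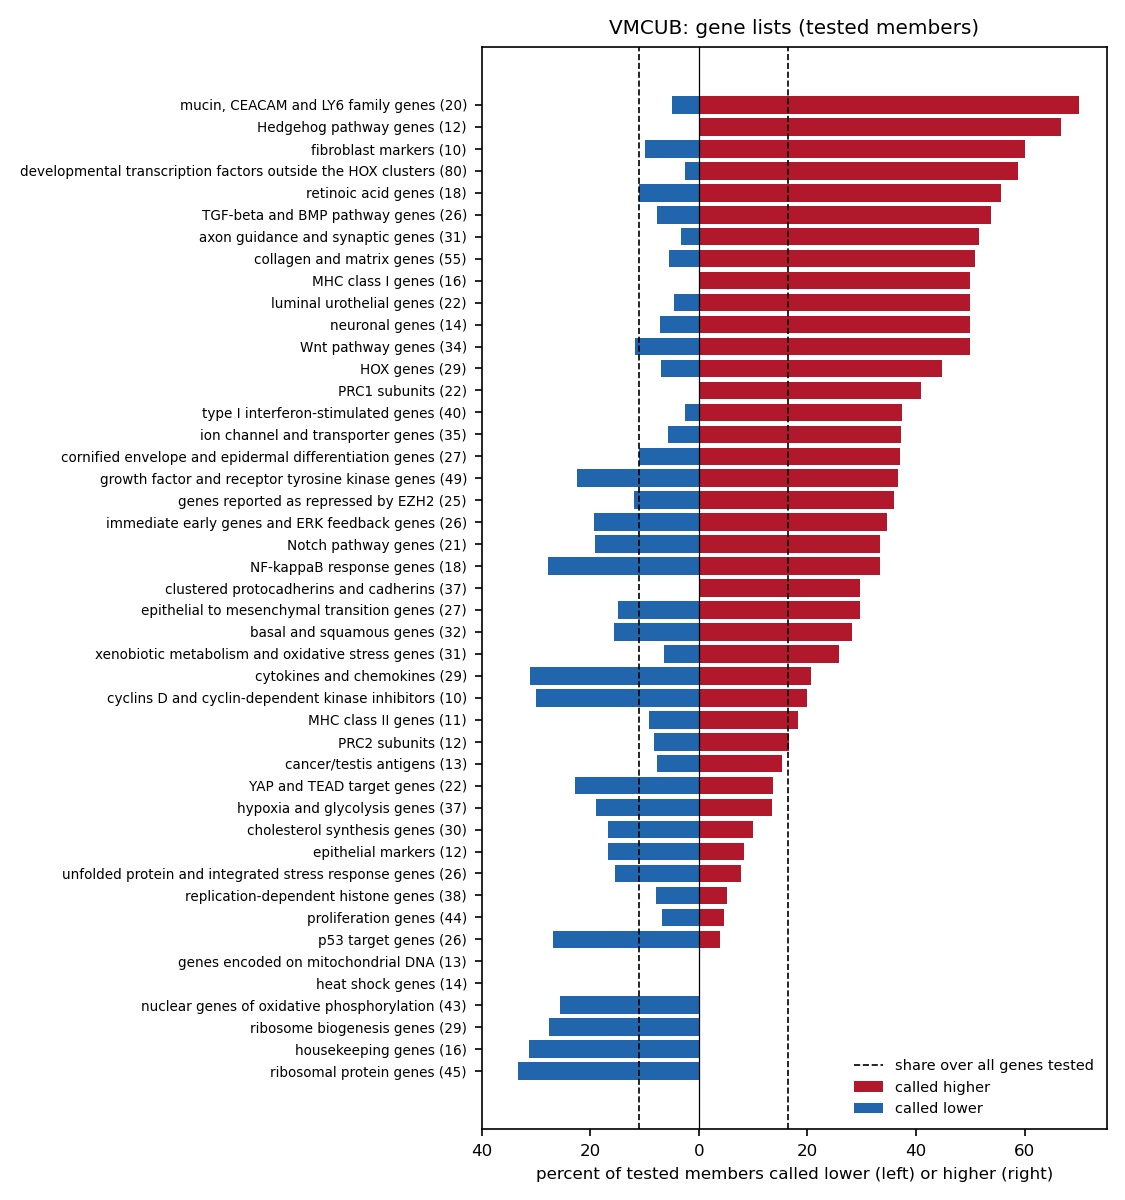
For each gene list with at least 10 tested members (number in brackets), the bars give the percent of tested members called higher (red, to the right) and lower (blue, to the left), and the dashed lines give the shares over all genes tested, 16.4% and 11%. Mucin, Hedgehog and developmental transcription factor lists lie far to the right, and the ribosomal protein list holds lower calls only.

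Some of the risers were neighbours on a chromosome. In 26 places 3 or more consecutive tested genes were all at least 2-fold higher, 85 genes in all, and the genes named in this paragraph were chosen after their values were seen. Over all genes tested, 7.37% were at least 2-fold higher. How many such places unlinked rises would give was not computed. Some places hold overlapping genes that can share reads, such as GCOM1 with MYZAP, FAM149A with RPSAP70 and LIMS2 with GPR17. Neighbours among DUOX2, DUOXA2, DUOXA1 and DUOX1 also overlap at their ends, as do TSPAN8 and LGR5. DUOXA2 had only 4 counts in the DMSO and 45 in the CPI-0209 libraries, so its fold change is uncertain. On chromosome 4, between 54229097 and 55125595 of GRCh38, the 3 receptor tyrosine kinase genes PDGFRA, KIT and KDR rose together. PDGFRA measured 0.111, 0.217 and 0.0427 CPM in the DMSO libraries and 1.13, 1.63 and 1.61 CPM in the CPI-0209 libraries (log2 fold change 3.55 ± 0.42, adjusted p = 0.0016). KIT measured 0.111, 0.145 and 0.0641 CPM in the DMSO libraries and 0.914, 1.09 and 0.939 CPM in the CPI-0209 libraries (log2 fold change 3.19 ± 0.30, adjusted p = 0.00055). KDR, a receptor of vascular endothelial growth factor, measured 0, 0.0241 and 0.0855 CPM in the DMSO libraries and 0.311, 0.397 and 0.528 CPM in the CPI-0209 libraries (log2 fold change 3.25 ± 0.63, adjusted p = 0.011). On chromosome 15, between 45092650 and 45201175, the hydrogen peroxide-producing oxidases DUOX2 and DUOX1 and their maturation factors DUOXA2 and DUOXA1 had log2 fold changes of 1.76, 1.02, 3.29 and 1.53, and the adjoining SHF 1.07 (its call was lost without DMSO replicate 1 or any 1 CPI-0209 library and without DMSO replicate 3, adjusted p up to 0.12). The matrix metalloproteinases MMP10, MMP1, MMP12 and MMP13 on chromosome 11 (between 102770503 and 102955734) had values of 1.25, 1.76, 3.60 and 1.38, and the peptidylarginine deiminases PADI2, PADI1, PADI3 and PADI4 on chromosome 1 (between 17066761 and 17364004) 3.48, 1.41, 1.83 and 2.15. MMP13, a collagenase, was the strongest of these in level, from 14.1, 17.1 and 14.3 CPM to 39.1, 40.5 and 38.6 CPM. The calls of MMP10 and PADI4 were lost without DMSO replicate 1 or any 1 CPI-0209 library, and that of PADI3 without CPI-0209 replicate 2 or 3 (adjusted p up to 0.097, 0.093 and 0.063). LGR5, a stem cell receptor, rose beside PTPRR and TSPAN8 on chromosome 12, from 0.0557, 0.0483 and 0 CPM to 0.798, 0.753 and 0.528 CPM (log2 fold change 4.32 ± 0.55, adjusted p = 0.002).

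Among 4 risers, the bases before the RefSeq start held many CpG dinucleotides, the sites of DNA methylation, in some and few in others. The bases before the start are shown for KIT and KDR, which rose together with PDGFRA, and for COL6A3 and ALPP, which were among the largest risers, to let their CpG content be compared. The 250 bases upstream of the RefSeq start are those of GRCh38.p14, read 5′ to 3′ on the strand of the gene, with each CG in capitals. They lie at chr4:54657707-54657956 on the plus strand for KIT, chr4:55125596-55125845 on the minus strand for KDR, chr2:237414165-237414414 on the minus strand for COL6A3 and chr2:232378501-232378750 on the plus strand for ALPP.
KIT: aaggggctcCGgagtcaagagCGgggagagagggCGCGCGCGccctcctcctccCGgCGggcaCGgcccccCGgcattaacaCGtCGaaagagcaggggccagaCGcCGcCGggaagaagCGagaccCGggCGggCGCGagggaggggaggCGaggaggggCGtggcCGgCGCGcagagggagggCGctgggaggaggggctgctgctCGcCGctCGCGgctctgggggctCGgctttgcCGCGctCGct
KDR: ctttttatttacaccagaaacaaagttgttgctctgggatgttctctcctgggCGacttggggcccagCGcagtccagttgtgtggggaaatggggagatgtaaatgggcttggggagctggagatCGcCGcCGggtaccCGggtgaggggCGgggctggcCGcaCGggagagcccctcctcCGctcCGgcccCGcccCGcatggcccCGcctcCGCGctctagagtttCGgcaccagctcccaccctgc
COL6A3: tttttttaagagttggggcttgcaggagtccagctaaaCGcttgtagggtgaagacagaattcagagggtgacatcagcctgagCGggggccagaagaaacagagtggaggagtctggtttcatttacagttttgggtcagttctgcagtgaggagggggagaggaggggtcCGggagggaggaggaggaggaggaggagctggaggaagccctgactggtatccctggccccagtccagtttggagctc
ALPP: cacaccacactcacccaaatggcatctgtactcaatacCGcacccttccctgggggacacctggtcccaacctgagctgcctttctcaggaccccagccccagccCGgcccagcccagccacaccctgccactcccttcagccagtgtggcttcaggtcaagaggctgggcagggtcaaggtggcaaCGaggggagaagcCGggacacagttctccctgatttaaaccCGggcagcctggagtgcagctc
The window of KIT held 34 CG and that of KDR 17, against 3 in COL6A3 and 5 in ALPP. The ratio of observed to expected CpG was 0.973 in KIT, 0.640 in KDR, 0.185 in COL6A3 and 0.210 in ALPP. All 4 genes rose by more than 3 on the log2 scale. A CG, which reads the same on both strands, was present in 99.3% of the windows of all genes tested. A comparison of CpG content between the genes that rose and the others is void, since windows were matched for 70.3% of the 1140 genes and 74.3% of all genes tested, under 80%.

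The response of VMCUB was then set against the mean response of the 7 other lines in one fit of all 48 libraries. Of 19790 genes tested, VMCUB differed upward in 2144 (10.8%) and downward in 2847 (14.4%), by at least 2-fold in 434 (2.19%) and 595 (3.01%). Of the genes called in VMCUB itself, 1172 were higher and also above the other lines, and 1097 were lower and also below them. In this contrast, leaving out DMSO replicate 2 gave 1240 genes upward and 1167 downward, and without any 1 CPI-0209 library 1751 to 1847 downward. Many large risers were called in other lines as well. Of the 1140 genes at least 2-fold higher, 632 were called higher in 4 or more other lines, 71 in all 7 and 93 in none, while 276 were called lower in at least 1. Taken alone, the other lines had 11.8% (HT1197), 23.7% (HT1376), 9.3% (KU1919), 30.8% (SW780), 9.37% (T24), 22.1% (639V) and 25.7% (TCCSUP) of their tested genes called higher. The shares called lower were 7.8%, 16%, 2.4%, 30.3%, 0.93%, 17.1% and 23.0% in the same order. Genes with 0 counts in a whole group of another line have no finite mean there. This held for 2302 genes, 115 of them called, and for 114 of the 1140, among them MRC1.

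FMN1, UBASH3B and NUP210 rose more in VMCUB than in the mean of the other lines. UBASH3B, a phosphatase that acts on receptor signalling, rose in VMCUB from 0.696, 1.13 and 0.727 CPM to 9.11, 8.87 and 8.86 CPM and had log2 fold changes of -0.26 to 0.19 in the other 7 lines (difference 3.39 ± 0.14, adjusted p = 5.8e-20). FMN1 ranged from -0.90 to 0.40 in the other lines (difference 3.85 ± 0.34, adjusted p = 3.4e-11), and NUP210, a nuclear pore protein, from -0.31 to 1.16 (difference 2.66 ± 0.30, adjusted p = 1.5e-08). MUC1 lay between -0.90 and 0.33 in the other lines against 2.42 in VMCUB on this fit (difference 2.57 ± 0.12, adjusted p = 8.0e-19), UBE2L6 between -0.37 and 0.35 (difference 1.43 ± 0.11, adjusted p = 8.5e-13) and LAMA4 between -0.52 and 1.48 (difference 1.94 ± 0.17, adjusted p = 1.1e-11). COL6A3 rose in other lines too, with 2.96 in HT1376, and was called higher in 4 of them (difference 3.64 ± 0.28, adjusted p = 9.0e-13). ALPP (difference 3.17) was called higher in 5 other lines and lower in 1. IGF2BP1 (difference 3.07) had 3.65 in HT1376, and FAM167A (difference 2.83) 4.82 there, above VMCUB. ELN, elastin (difference 2.68), had 2.54 in TCCSUP. CBX2 was called higher in all 7 other lines, most in HT1376 (2.80), and VMCUB exceeded their mean by 1.34.

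Several genes that fell in VMCUB rose elsewhere. DLL1, a Notch ligand, had log2 fold changes of 0.96 to 3.17 in the other 7 lines and was called higher in 6 of them, but in VMCUB it measured 44.7, 40.4 and 47.8 CPM in the DMSO libraries and 34.5, 36.7 and 34.1 CPM in the CPI-0209 libraries (difference -2.65 ± 0.19, adjusted p = 3.8e-14). The call of the VMCUB fall itself was lost without DMSO replicate 1 or any 1 CPI-0209 library (adjusted p up to 0.11). SAMD5 had 0.87 to 4.21 elsewhere and -0.39 in VMCUB (difference -2.11 ± 0.15, adjusted p = 4.0e-14). FST ranged from -0.25 to 3.45 in the other lines (difference -2.27 ± 0.11, adjusted p = 1.4e-18), and COL18A1, a basement membrane collagen, from -0.28 to 3.41 (difference -2.16 ± 0.37, adjusted p = 4.3e-05). The secreted factors CSF2 and CXCL5 fell in VMCUB from 8.88, 9.36 and 8.14 CPM to 6.11, 5.42 and 6.54 CPM and from 11.9 ± 0.531 to 7.48 ± 0.664 CPM (differences -2.43 and -2.23). TP53AIP1 and KRT31 had differences of -2.41 and -3.46. KRT31 and CSF2 had 0 counts in a whole group of another line, and KRT31 passed the filter in only 1 other line, so the size of their difference is uncertain. TP53AIP1 and CXCL5 passed the filter in only 3 other lines each. They were called higher in 1 and 2 of these, so their differences also rest on few lines. Of 11 MHC class II genes, 7 lay below the other lines and 0 above: HLA-DQB1 had 5.99 in TCCSUP and 5.50 in HT1376 (difference -1.30 ± 0.24, adjusted p = 0.00011), and HLA-DMB 5.15 in HT1376 (difference -1.43 ± 0.38, adjusted p = 0.0056). Of 29 cytokines, 13 lay below the other lines and 1 above. Over all 19790 genes of the contrast, 14.4% lay below and 10.8% above. The members of the 2 lists were counted among the 15474 genes tested in VMCUB, so the sets differ. These 2 list counts were not recomputed without single libraries. Downward calls over all genes dropped from 2847 to 1167 without DMSO replicate 2.

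**Figure D5:**
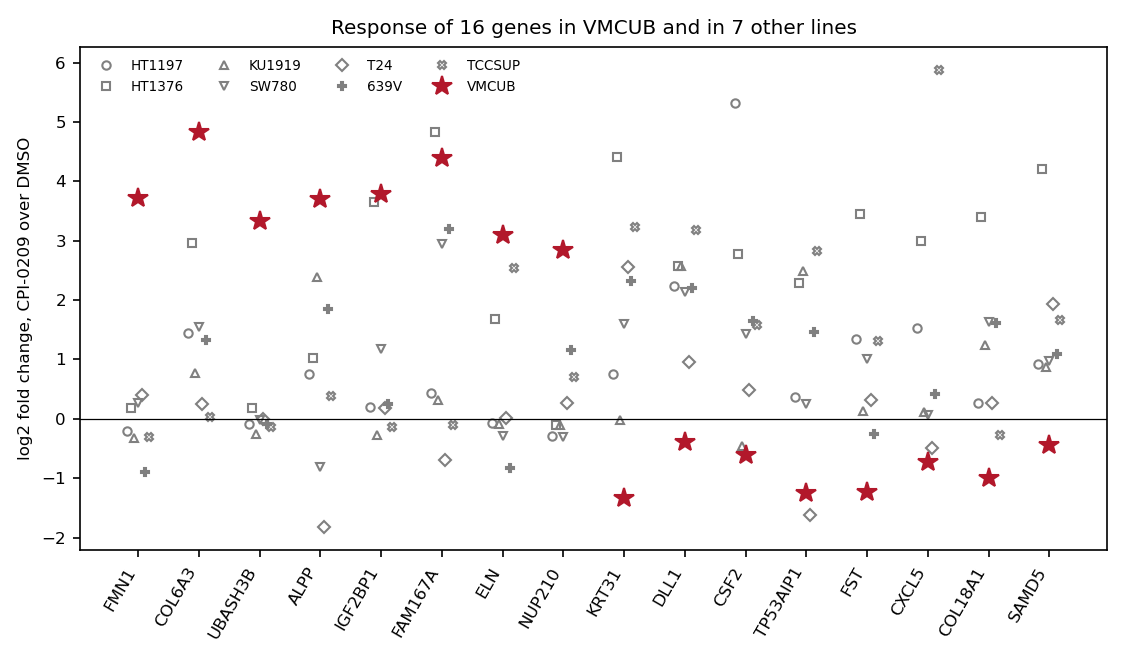
Log2 fold changes (CPI-0209 over DMSO) from the fit of all 48 libraries are shown for the 16 genes named for the largest differences, with VMCUB as red stars and each other line as a grey marker. For FMN1 and UBASH3B all 7 other lines lie at 0.40 or below, and for DLL1 all 7 lie above VMCUB.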

How the data were processed

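RNA sequencing counts per gene were deposited by the authors as whole numbers for 35535 genes. Per the submitters' processing notes, STAR 2.7.3a, RSEM 1.3.1 and hg38 were used; how RSEM estimates became whole counts, the annotation and the strand setting are not given in the sources used here. Antisense and overlapping genes are therefore uncertain. In R 4.3.3, edgeR 4.0.16 (TMM scaling, filterByExpr, robust quasi-likelihood test, Benjamini-Hochberg adjustment, threshold 0.05) compared 3 CPI-0209 with 3 DMSO libraries on 15474 genes with 4 residual degrees of freedom. A fit of all 48 libraries (32 residual degrees of freedom) tested the VMCUB effect minus the mean effect of the 7 other lines. SEs were taken from the F statistic, as the size of the log2 change over its square root. On simulated counts for 15230 genes, the first test recovered 46.9% of 1.5-fold, 87.9% of 2-fold and 93.8% of 4-fold changes, with 10 false among 159 calls. For the contrast with the other lines these shares were 44.3%, 66.7% and 73.8%, with 6 false among 123 calls. The simulation gave both groups the same spread and drew each gene independently. The real DMSO libraries were wider apart and carried a length trend, so the simulated share of false calls may not hold for them.

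Alternatives were RLE size factors, library totals, no filter, DESeq2 1.42.0, limma 3.58.1 voom with quality weights, all libraries in 1 fit, thinned counts, a replicate block, each library left out, DMSO replicate 1 alone and, added after seeing the data, removal of each library's transcript length trend. Coordinates are GENCODE 29 on GRCh38.

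Named genes were those with the largest fold change (15 higher, 10 lower) or smallest p (10 each) with groups apart and a mean of at least 1 CPM in the higher group, up to 4 of smallest p in each list, the 8 largest differences each way from the other lines, and DMSO replicate 1 extremes. Other genes named were chosen after their values were seen. The members and the 47 lists were chosen with earlier results of these data known. A few named genes that the rule selects are not reported here.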

Additional observations from a re-analysis of the deposited data

Results flagged for a closer look

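The response of VMCUB differed from the mean response of the 7 other lines in 2144 genes upward and 2847 downward, by the test of the difference itself in edgeR over 48 libraries. Differences are given as VMCUB log2 fold change minus that mean. The named genes above the other lines were FMN1 with 3.85, COL6A3 with 3.64, UBASH3B with 3.39, ALPP with 3.17, IGF2BP1 with 3.07, FAM167A with 2.83, ELN with 2.68 and NUP210 with 2.66. Members of lists that also stood above were MUC1 with 2.57, LAMA4 with 1.94, UBE2L6 with 1.43 and CBX2 with 1.34. Below the other lines were KRT31 with -3.46, DLL1 with -2.65, CSF2 with -2.43, TP53AIP1 with -2.41, FST with -2.27, CXCL5 with -2.23, COL18A1 with -2.16 and SAMD5 with -2.11. HLA-DMB had -1.43 and HLA-DQB1 -1.30. The values of KRT31 and CSF2 rest on lines with 0 counts in a whole group, and TP53AIP1 and CXCL5 passed the filter in only 3 other lines.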

How the results depend on the processing

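Depth limits the weakly expressed genes: 701 of the 1140 genes at least 2-fold higher had under 1 CPM in DMSO. With voom weights, which gave the DMSO libraries 6.90, 0.122 and 0.255, 5791 genes were higher, 4824 lower and 100 at least 2-fold lower, and the contrast with other lines gave 4867, 5727, 1038 and 1384 genes (higher, lower, then 2-fold or more up and down). With DMSO replicate 1 alone the counts were 4035 higher, 4269 lower and 70 at least 2-fold lower. Library totals gave 826 lower and 28 at least 2-fold lower, DESeq2 2929 lower, and all 48 libraries in 1 fit 3880 lower and 156 at least 2-fold lower. Leaving out 1 library gave 1475 to 3807 higher, 297 to 3871 lower and 22 to 193 at least 2-fold lower, the last without DMSO replicate 3. In the contrast it gave 1240 to 3179 higher, 1167 to 3626 lower and 328 to 739 at least 2-fold lower, all 3 lowest values without DMSO replicate 2. The share of calls that were higher was 59.9%, against 48.6% with DMSO replicate 1 alone, 47.4% with all 48 libraries in 1 fit and 70.9% with the length trend removed. The cause was not tested.

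The count at least 2-fold higher stayed between 915 and 1434 under all alternatives. Of 204 named genes that were called, 39 lost the call without at least 1 library. The labels state no pairing of the libraries. Deviations of same-numbered DMSO and CPI-0209 libraries from their group means had correlations of -0.05, -0.06 and -0.08. Those of differently numbered libraries had 0.0039 to 0.050. Values this near 0 cannot show whether libraries were paired. With a replicate block 2258 genes were higher, 1165 lower, 1110 up by 2-fold or more and 39 down by as much, and 1785 and 2111 in the contrast.

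Signs changed only in genes that were never called. EZH2 was -0.042 with RLE and with DESeq2, -0.052 with 48 libraries, -0.016 thinned, -0.0082 with DMSO replicate 1 alone and -0.026 with the length trend removed. Leaving out 1 library, EZH2 ran from -0.061 to 0.021, SUZ12 from -0.080 to 0.018, CD68 from -0.050 to 0.234 and CD14 from -0.137 to 0.105. SUZ12 was 0.082 with library totals and 0.012 with voom. CD14 was 0.058 with totals, 0.0063 with voom and 0.127 with the length trend removed. CD68 was -0.0036 with voom and -0.048 with DMSO replicate 1 alone, where MT-CO1 was -0.019.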
